A study of Mus musculus with 4 samples.

Results

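The genes described are 47 mouse genes of the DNA damage response and DNA repair, chosen by their known roles, out of 20289 genes with a named probe on the array. A named probe existed for 46 of them, and Xrcc2 was not analysed here. RNA was taken from RAW264.7 cells, a mouse macrophage line that the study used as RAW G9, a single reporter clone made with a lentivirus that carries GFP-RelA under the Rela promoter and mCherry under the Tnf promoter. In 2 arrays the cells had received 10 ng/ml LPS for 4 h. In the other 2 they had received none, with an incubation time of 0 h in the sample labels and 4 h in the study's methods. LPS, a lipid of the outer membrane of gram-negative bacteria, activates the receptor TLR4. The arrays of each condition, A and B, are called biological duplicates in the methods.

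Cells meet broken, mismatched and chemically altered DNA with separate sets of proteins. The kinases ATM and ATR sense breaks and stalled replication forks and signal through CHK2 and CHK1, while homologous recombination, end joining, the Fanconi anaemia pathway and the base excision, mismatch and nucleotide excision pathways mend the lesions. Many of these proteins also serve ordinary DNA replication, and macrophages responding to bacterial products make reactive oxygen and nitrogen species that can damage DNA.

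Genes with lower transcript signal in cells given LPS than in untreated cells occurred in each group except lesion tolerance, which Rad18 alone represents here. Their share differed between groups. It was 2 of 6 tested genes in nucleotide excision repair (33.3%). Among the damage-sensing and checkpoint kinases, here Atm, Atr, Chek1 and Chek2, it was 1 of 4 (25.0%), near the 21.4% of all tested genes. Of the 39 repair genes whose level could be tested, 22 fell, 2 rose and 15 did not pass the test. Of these 22, Xrcc3 and Exo1 entered the test through the untreated arrays alone, where they are higher. Among the 35 repair genes detected in both conditions 20 fell and 2 rose. The matching shares over all genes detected in both conditions were not computed. By the same test 56.4% of the repair genes were lower and 5.13% higher, against 21.4% lower and 13.7% higher among all 9729 tested genes. The median log2 change, LPS minus untreated, was -0.57 over the 39 repair genes and -0.09 over all tested genes. Both LPS arrays lay below both untreated arrays for 28 of the 39 repair genes (71.8%, against 42.5% of all tested genes) and above both for 4 of them (28.2% of all tested genes). The falls ran from 1.42-fold to 4.29-fold, and 7 genes fell by 1 or more on the log2 scale. These sizes depended on background correction. Without it the change was -0.45 for Chek2 and -0.47 for Fanci, against -1.18 and -1.27 with it. For Msh6 it was -1.84 against -2.10, and for Rad54l -1.16 against -1.31. Calls are from limma's moderated test at a Benjamini-Hochberg adjusted p under 0.05 over all tested probes. The values are log2 bead signals after background correction and quantile normalization, and each gene is given by its brightest tested probe. The LPS arrays came from 2 slides and both untreated arrays from another, so slide and LPS cannot be told apart for any gene below. The RNA is of whole cultures, in which fewer cells that express a gene and less RNA per cell cannot be told apart.

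With slide as a random block 13 of 39 tested repair genes were lower and 1 higher, against 9.20% lower and 7.46% higher among all tested genes. With this block 10 calls were lost. It assumed a correlation of 0.732 between arrays of the same slide, which these arrays cannot measure apart from LPS. The number of lower genes also moved with the arrays used, over the whole array as well as in repair genes. Without untreated replicate A the median change was -0.49 over the repair genes and -0.11 over all tested genes. Without untreated replicate B these medians were -0.55 and -0.10. They were -0.56 and -0.05 when LPS replicate A was left out, and -0.50 and -0.06 when LPS replicate B was. With each array scaled to its median signal over all probes in place of quantile normalization, the median change was -1.09 over the repair genes and -0.70 over all tested genes, which leaves -0.39 between them. Then 36 of 39 repair genes were lower and 0 higher, against 62.7% and 4.95% of all tested genes. With each array scaled to the median of its tested probes alone, these counts were 17 and 2 of 39. Of all tested genes 19.3% were then lower and 31.5% higher, with a median change of 0.10.

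Median probe signal was 104.1 and 105.1 in the LPS arrays and 117.8 and 114.1 in the untreated arrays, with 16380 to 17892 of 45281 probes detected per array. The median absolute difference of a tested probe between replicates was 0.203 in the LPS pair and 0.105 in the untreated pair on the log2 scale. The LPS response was present: Tnf was higher by 4.46 on the log2 scale (adjusted p = 2.17e-06 from limma). All 9 macrophage markers examined were detected, with 0 of 4 T cell, 0 of 2 B cell and 0 of 5 fibroblast markers. Low signals were found for Krt8 and Cdh1, 2 of 4 epithelial markers, and for Elane and S100a8, 2 of 4 neutrophil markers. S100a8 was higher with LPS by 0.85 (adjusted p = 0.0039 from limma), and the part of such transcripts in the changes of the repair genes was not tested.

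The promoters of the 4 repair genes with the largest falls and of the 2 that rose are shown because genes of separate pathways fell together. They are given 5′ to 3′ on the strand of the gene, from 250 bases before its start to 50 after it, as RefSeq gives them on GRCm38.p6. Capitals mark the letters TTTCCCGC, TTTCGCGC, TTTGCCGC or TTTGGCGC on either strand, which E2F factors, regulators of S phase genes, are known to bind. The windows are chr17:87974800-87975099 (plus strand) for Msh6, chr4:116123641-116123940 (minus strand) for Rad54l, chr7:79392088-79392387 (plus strand) for Fanci, chr5:110839733-110840032 (plus strand) for Chek2, chr7:19344821-19345120 (plus strand) for Ercc1 and chr11:82780859-82781158 (plus strand) for Lig3.
Msh6: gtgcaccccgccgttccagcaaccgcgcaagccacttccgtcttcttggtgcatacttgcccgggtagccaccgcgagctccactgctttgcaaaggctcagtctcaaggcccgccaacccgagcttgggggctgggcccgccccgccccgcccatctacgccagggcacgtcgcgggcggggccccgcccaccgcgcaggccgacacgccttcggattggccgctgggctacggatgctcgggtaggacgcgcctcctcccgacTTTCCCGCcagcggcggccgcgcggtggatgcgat
Rad54l: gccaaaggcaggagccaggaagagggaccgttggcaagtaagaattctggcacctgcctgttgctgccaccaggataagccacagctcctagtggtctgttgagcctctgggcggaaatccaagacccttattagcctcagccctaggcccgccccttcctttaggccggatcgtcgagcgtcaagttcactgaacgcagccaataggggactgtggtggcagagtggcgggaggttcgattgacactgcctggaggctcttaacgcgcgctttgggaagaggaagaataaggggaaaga
Fanci: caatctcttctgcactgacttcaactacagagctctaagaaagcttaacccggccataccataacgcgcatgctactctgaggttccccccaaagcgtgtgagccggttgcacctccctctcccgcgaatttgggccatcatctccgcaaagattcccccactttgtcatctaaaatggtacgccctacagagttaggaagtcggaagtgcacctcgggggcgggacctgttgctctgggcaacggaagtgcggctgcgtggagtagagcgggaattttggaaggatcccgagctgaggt
Chek2: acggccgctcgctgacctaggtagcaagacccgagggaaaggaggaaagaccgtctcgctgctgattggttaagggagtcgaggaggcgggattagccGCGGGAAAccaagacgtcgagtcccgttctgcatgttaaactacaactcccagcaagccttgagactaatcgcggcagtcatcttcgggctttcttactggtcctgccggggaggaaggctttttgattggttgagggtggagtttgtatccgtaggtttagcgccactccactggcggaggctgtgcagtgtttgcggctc
Ercc1: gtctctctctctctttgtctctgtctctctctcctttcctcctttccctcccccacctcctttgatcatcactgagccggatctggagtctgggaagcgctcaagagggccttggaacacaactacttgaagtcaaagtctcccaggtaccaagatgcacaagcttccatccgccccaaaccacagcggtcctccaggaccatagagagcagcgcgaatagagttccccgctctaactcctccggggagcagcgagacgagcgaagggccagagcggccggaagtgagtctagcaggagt
Lig3: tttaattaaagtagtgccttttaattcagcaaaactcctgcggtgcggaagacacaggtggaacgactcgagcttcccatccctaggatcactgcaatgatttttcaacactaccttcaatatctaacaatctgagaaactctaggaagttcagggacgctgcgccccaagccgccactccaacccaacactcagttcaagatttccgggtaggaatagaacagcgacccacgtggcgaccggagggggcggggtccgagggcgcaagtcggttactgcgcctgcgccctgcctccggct

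The E2F letters stood in a window of 3 of 15 lower repair genes, 0 of 2 that rose and 3 of 15 that did not pass. In the mouse annotation they stood in 744 of 32851 promoter windows (2.26%). Repair genes were counted once each, also where a gene had 2 windows, and the annotation was counted by window. Among the lower genes they begin at base 15 after the start of Msh6, 152 bases before that of Chek2 and 46 bases before that of Xrcc6. Among the genes that did not pass they stand before the starts of Bard1, Brca2 and Fancg. The count was the same in lower genes and in genes that did not pass. The NF-κB motif was searched in the same way. It stood in a window of 0 of 15 lower genes and of 1 of 15 genes that did not pass, Atr, against 4.51% of all windows. A window was given for 32 of the 39 tested genes. A match describes letters only and says nothing of binding.

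Mismatch repair held the largest fall of the 39 tested genes. Msh6 encodes a protein that recognises mismatched bases. Its log2 value was 8.20 and 8.57 in the LPS arrays and 10.56 and 10.42 in the untreated arrays, a change of -2.10 (standard error 0.164, adjusted p = 0.000125 from limma), or 4.29-fold. The deposited bead signals, before any correction, were 299 and 320 with LPS and 2202 and 1640 in untreated cells, on arrays whose signals were lower with LPS over the whole design. Both conditions stood well apart, and a second Msh6 probe changed by -2.13. Pms2, the endonuclease subunit that acts after mismatch recognition, had 5.72 and 5.58 with LPS and 6.46 and 6.41 in untreated cells (-0.78, adjusted p = 0.00463 from limma).

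In homologous recombination, which copies the missing sequence from an intact sister molecule, 5 of 7 tested genes fell and 0 rose. Of the 5 of them that were detected in both conditions, 3 fell. Rad54l, whose product is a motor protein of strand pairing, had log2 values of 8.82 and 8.75 with LPS and 10.11 and 10.08 in untreated cells (-1.31, standard error 0.129, adjusted p = 0.000364 from limma). The 2 arrays of each condition nearly coincide, and the gap between conditions exceeds their spread. Palb2, which bridges BRCA1 and BRCA2, had 6.80 and 6.35 with LPS and 7.36 and 7.47 without (-0.84), and the Bloom syndrome helicase gene Blm had 8.61 and 8.03 with LPS and 9.05 and 9.16 without (-0.78). Both passed with wider spread in the LPS pair. Xrcc3, another gene of this pathway, had 4.60 and 4.49 with LPS and 5.51 and 5.25 in untreated cells (-0.83). It was detected on 1 LPS array, and the lowest log2 value of a detected probe is 4.56 to 4.65, so its LPS level lies near the limit of detection. The change of Xrcc3 was -0.23 with no background correction. With arrays scaled to their tested probes it was -0.28 and did not pass (adjusted p = 0.175 from limma). The brightest probe of the resection nuclease gene Exo1 was not detected on either LPS array, where it had 4.51 and 4.64, against 5.29 and 4.94 in untreated cells. This probe was at least 1.42-fold lower with LPS, against the lowest value of a detected probe where its own was below that (adjusted p = 0.0395 from limma). The bound does not hold for the gene, because another Exo1 probe was detected on an LPS array. Of 13 other settings the Exo1 call was lost in 8 and its sign turned in 1. That was with arrays scaled to their tested probes, where the change was 0.042. The other tested Exo1 probe changed by -0.07 without passing. Brca2, which acts on the single strands at resected breaks, did not pass with its brightest probe (-0.39, adjusted p = 0.065 from limma), while its second probe was lower by the test (-0.68). Bard1, the partner of BRCA1, had a change of -0.17, and its LPS and untreated arrays overlapped. Brca1 itself was detected on 1 of 4 arrays, an untreated one, and was not tested.

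The Fanconi anaemia pathway unhooks crosslinks between DNA strands, and its central pair, Fancd2 and Fanci, fell together. Fancd2 had 7.00 and 7.13 with LPS and 8.15 and 8.12 in untreated cells (-1.07, standard error 0.131, adjusted p = 0.00102 from limma). Fanci had 4.79 and 5.46 with LPS and 6.38 and 6.41 in untreated cells (-1.27, standard error 0.217, adjusted p = 0.00456 from limma). The LPS arrays differ from each other more for Fanci than for Fancd2, yet both are under the untreated arrays. Of the core complex genes, Fancc changed by -0.33 (adjusted p = 0.181 from limma) and did not pass. Fancg was not detected on either LPS array and was at least 1.13-fold lower there, without passing (adjusted p = 0.0797 from limma). Such a fold sets the untreated mean against the higher, in each LPS array, of the probe's own value and the lowest value of a detected probe. Fanca was not detected in either condition.

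**Figure D1:**
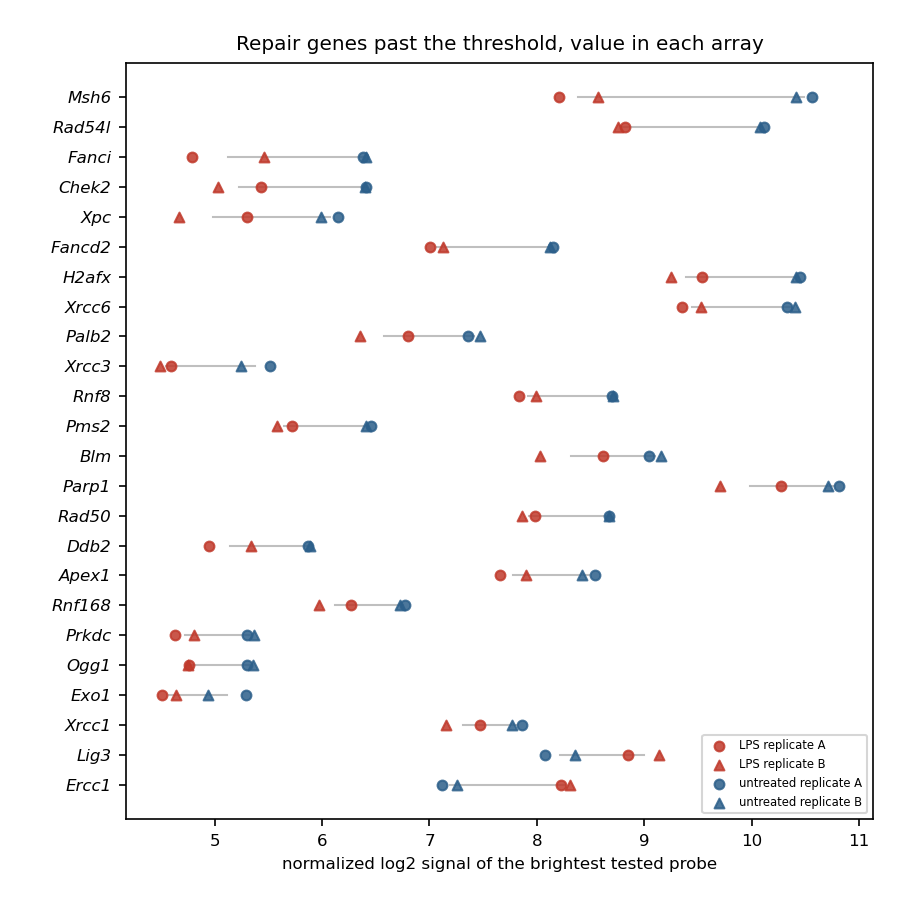
Each of the 24 repair genes past the threshold is a row, with its normalized log2 signal on the horizontal axis, a point for every array (circles for replicate A, triangles for replicate B, LPS in red, untreated in blue) and a grey line joining the condition means. Msh6 shows the widest gap, with 8.20 and 8.57 in LPS arrays and 10.56 and 10.42 in untreated arrays, and Lig3 and Ercc1 at the bottom are the 2 with LPS above untreated.

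Among the kinases that carry the damage signal, the sensor genes Atm and Atr did not pass the test. Prkdc, another kinase gene, is grouped with end joining below. Atm had log2 values of 8.63 and 8.79 with LPS and 8.78 and 8.78 in untreated cells (-0.08, adjusted p = 0.698 from limma), and Atr had 6.50 and 6.74 with LPS and 6.56 and 6.78 without (-0.05, adjusted p = 0.83). Arrays of both conditions overlap for each of them. The brightest Atm probe carries an older clone name that current annotation lists under Atm, and the other tested Atm probes changed by 0.36 and 0.20 without passing. Chek2, which encodes the checkpoint kinase that ATM activates, did fall, with 5.43 and 5.03 in LPS arrays and 6.41 and 6.40 in untreated arrays (-1.18, standard error 0.166, adjusted p = 0.00196 from limma). Its second probe was lower as well (-0.97). Chek1, the kinase downstream of ATR, had 4.34 and 4.76 with LPS and 4.76 and 4.77 in untreated cells. It was detected on 1 LPS array and did not pass (-0.21, adjusted p = 0.367 from limma).

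At the break itself, the MRE11, RAD50 and NBS1 complex binds DNA ends, and phosphorylated histone H2AX then recruits ubiquitin ligases. Rad50 had 7.98 and 7.87 with LPS and 8.67 and 8.68 in untreated cells (-0.75), whereas Mre11a had 8.68 and 8.65 with LPS and 8.50 and 8.58 without (0.12, adjusted p = 0.498 from limma). The second Rad50 probe changed by -0.24 and did not pass, and Nbn, which encodes NBS1, was not detected. H2afx, the histone gene now named H2ax, had 9.53 and 9.25 with LPS and 10.45 and 10.41 in untreated cells (-1.04, standard error 0.148, adjusted p = 0.00204 from limma). The ubiquitin ligase genes Rnf8 and Rnf168 act one after the other on chromatin around breaks, and both fell. Rnf8 had 7.84 and 7.99 with LPS and 8.70 and 8.71 without (-0.79), and Rnf168 had 6.27 and 5.97 with LPS and 6.77 and 6.73 without (-0.63). Trp53bp1, which encodes 53BP1, a reader of that ubiquitin mark, had 8.29 and 8.12 with LPS and 8.06 and 8.09 in untreated cells and did not pass (0.13, adjusted p = 0.495 from limma). Mdc1, the adaptor between H2AX and RNF8, was not detected.

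In end joining, which religates broken ends directly, 2 of 3 tested genes fell. Xrcc6, which encodes KU70, had 9.35 and 9.53 with LPS and 10.33 and 10.41 in untreated cells (-0.93, standard error 0.137, adjusted p = 0.00242 from limma). All 3 of its probes were lower, with changes of -0.93 to -1.10. Xrcc5, the gene of its partner KU80, was not detected, and neither was Xrcc4. Prkdc, which encodes the catalytic subunit of DNA-PK, had 4.63 and 4.81 with LPS and 5.30 and 5.36 without (-0.61, adjusted p = 0.0139 from limma), close to the limit of detection, and its other tested probe changed by -0.15 without passing. The change of Prkdc was -0.17 with no background correction (adjusted p = 0.085 from limma) and -0.098 with arrays scaled to their tested probes (adjusted p = 0.664). The ligase gene Lig4 had 4.92 and 4.89 with LPS and 5.17 and 5.15 without (-0.26, adjusted p = 0.158 from limma).

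Of 6 tested genes of single-strand break and base excision repair, 4 fell, 1 rose and 1 did not pass. Parp1, whose product marks strand breaks with poly(ADP-ribose), had 10.27 and 9.71 with LPS and 10.81 and 10.71 in untreated cells (-0.77, standard error 0.197, adjusted p = 0.0226 from limma), while its other probes changed by -0.79, past the threshold, and by -0.34, which did not pass (adjusted p = 0.116). Apex1, the endonuclease that cuts at abasic sites, had 7.65 and 7.90 with LPS and 8.54 and 8.42 without (-0.71). Ogg1, the glycosylase that removes oxidised guanine, had 4.76 and 4.75 with LPS and 5.30 and 5.36 without (-0.57). This call was lost in 6 settings, with a change of -0.16 with no background correction (adjusted p = 0.0905 from limma) and of -0.061 with arrays scaled to their tested probes (adjusted p = 0.781). The scaffold gene Xrcc1 had 7.47 and 7.15 with LPS and 7.86 and 7.77 without (-0.51, adjusted p = 0.0417 from limma), the smallest fall that passed. Parp2 changed by -0.36 and did not pass (adjusted p = 0.0741 from limma), and the glycosylase gene Neil3 was not detected.

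Lig3, the ligase that partners XRCC1, was the exception in this pathway, and its probes disagree. Its brightest probe had 8.85 and 9.14 with LPS and 8.07 and 8.36 in untreated cells (0.78, standard error 0.165, adjusted p = 0.0112 from limma). The next brightest was lower with LPS (-0.54, adjusted p = 0.0189 from limma) and the third did not pass (-0.05). The deposited signals of the brightest probe were 424 and 440 with LPS and 498 and 480 in untreated cells. Its higher value with LPS therefore appears only after normalization, and the change was -0.078 when arrays were scaled to their median signal.

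Nucleotide excision repair removes bulky and ultraviolet lesions, and its 2 lesion-recognition genes fell. Xpc had 5.30 and 4.67 with LPS and 6.15 and 5.99 in untreated cells (-1.08, standard error 0.215, adjusted p = 0.00855 from limma), and Ddb2 had 4.94 and 5.34 with LPS and 5.87 and 5.88 without (-0.73). Both LPS arrays of each gene lie below the untreated arrays but apart from one another. The lower LPS value of Xpc, 4.67, is near the limit of detection. The Xpc call was lost in 2 settings and the Ddb2 call in 6. A second Ddb2 probe did not pass (-0.39, adjusted p = 0.11 from limma), and the third was lower (-0.64). Ddb1, the partner of DDB2, changed by 0.07, Xpa, which verifies the lesion, by -0.26 and the helicase gene Ercc2 by -0.15, and none of these 3 passed. Ercc1, a subunit of the nuclease that cuts beside the lesion, had 8.22 and 8.31 with LPS and 7.11 and 7.26 without (1.08, standard error 0.135, adjusted p = 0.00113 from limma). Its deposited signals were 302 and 282 with LPS and 305 and 274 in untreated cells, level on the scale of the scanner. With arrays scaled to their median signal its change was 0.20 and did not pass (adjusted p = 0.378 from limma). The median over all tested genes was -0.70 in that setting. The Ercc1 call was kept in 13 of 14 other settings and lost in this 1. Rad18, a ubiquitin ligase for the tolerance of lesions at replication forks, changed by -0.07 and did not pass.

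**Figure D2:**
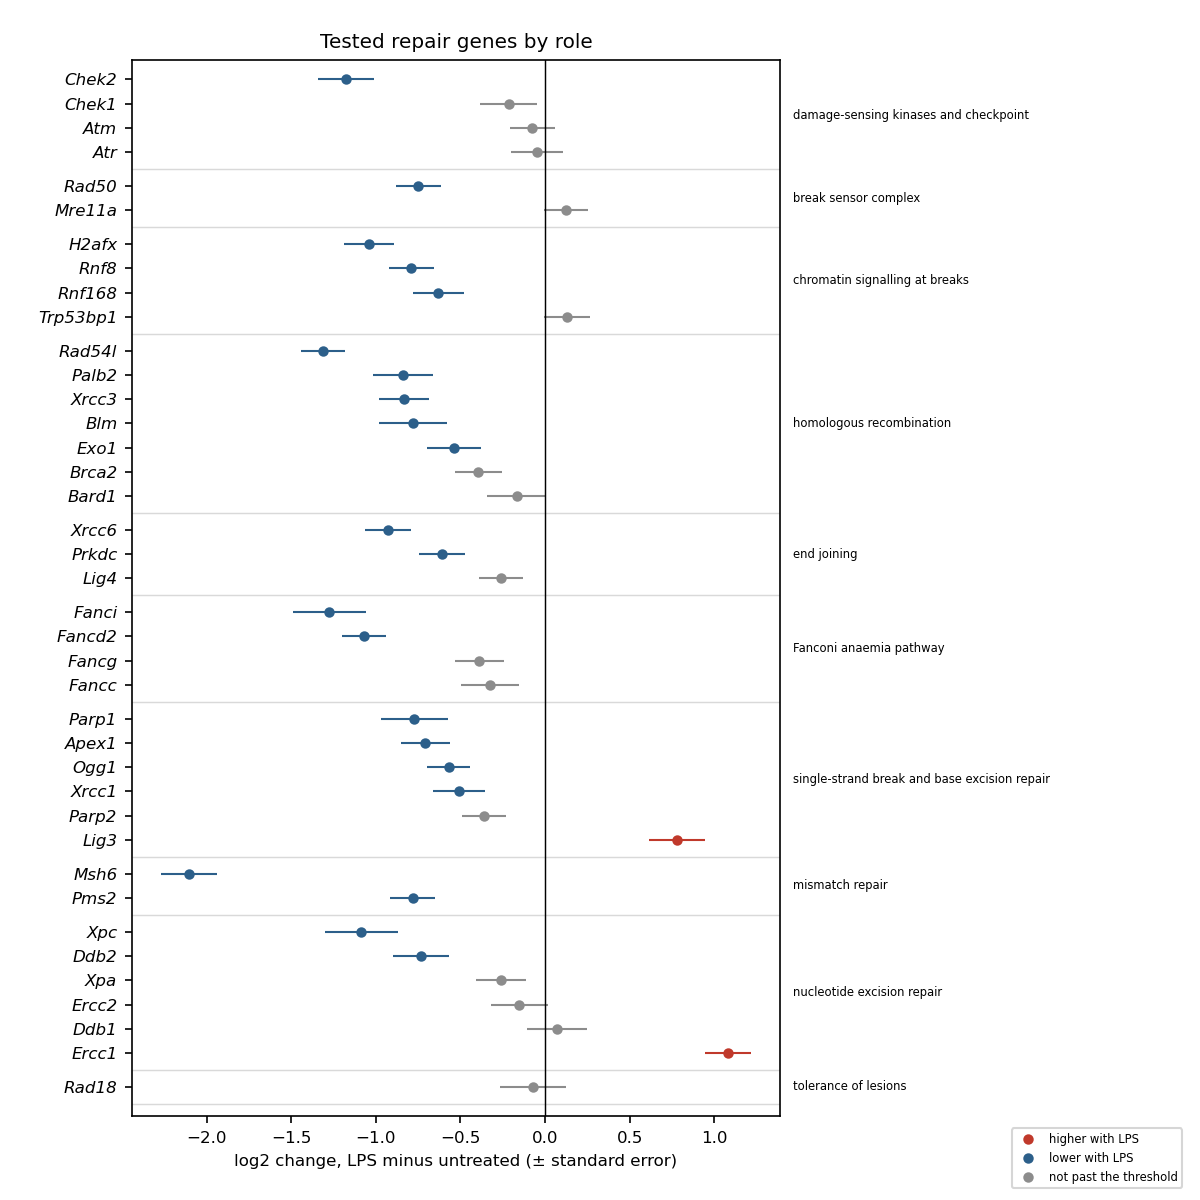
The log2 change of each of the 39 tested repair genes, LPS minus untreated, is on the horizontal axis with its standard error from limma, grouped by role from the damage-sensing kinases at the top to the tolerance of lesions at the bottom. Blue points are the 22 genes that fell, red points the 2 that rose and grey points the 15 that did not pass, and Atm and Atr lie next to 0 while Chek2 is at -1.18.

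Signal above the negative controls was found in both conditions for 35 of the 39 genes. The other 4, Chek1, Xrcc3, Exo1 and Fancg, reached it on both arrays of untreated cells only. The 7 genes detected in neither condition were Nbn, Mdc1, Brca1, Xrcc4, Xrcc5, Fanca and Neil3, which says only that their probes did not rise above the negative controls on these arrays.

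Genes of replication and the cell cycle, many of which are used together with repair genes in S phase, were mostly lower with LPS. Of 41 tested, 33 were lower (80.5%) and 0 were higher, with a median change of -0.86. Cdc6, which loads the replicative helicase, changed by -2.77, the transcription factor gene E2f2 by -2.61 and the thymidine kinase gene Tk1 by -2.28. E2f2 had 4.40 on LPS replicate B, below the lowest value of a detected probe on that array (4.65). Whether the falls of the repair genes go with a change in the share of dividing cells was not tested. A further 66 tested genes of repair outside the 47 had 25 lower (37.9%), 4 higher (6.06%) and a median change of -0.36. Ung, the glycosylase that removes uracil from DNA, had 7.23 and 7.25 with LPS and 10.28 and 10.16 in untreated cells (-2.98, standard error 0.131, adjusted p = 8.64e-06 from limma), a wider gap than for any of the 39 tested genes above. The checkpoint mediator gene Clspn changed by -2.43 and Rpa2, a subunit of the single-strand binding protein RPA, by -1.57. The polymerase genes Polm and Polb were higher by 0.91 and 0.59, and the Fanconi ubiquitin ligase gene Fancl by 0.70.

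**Figure D3:**
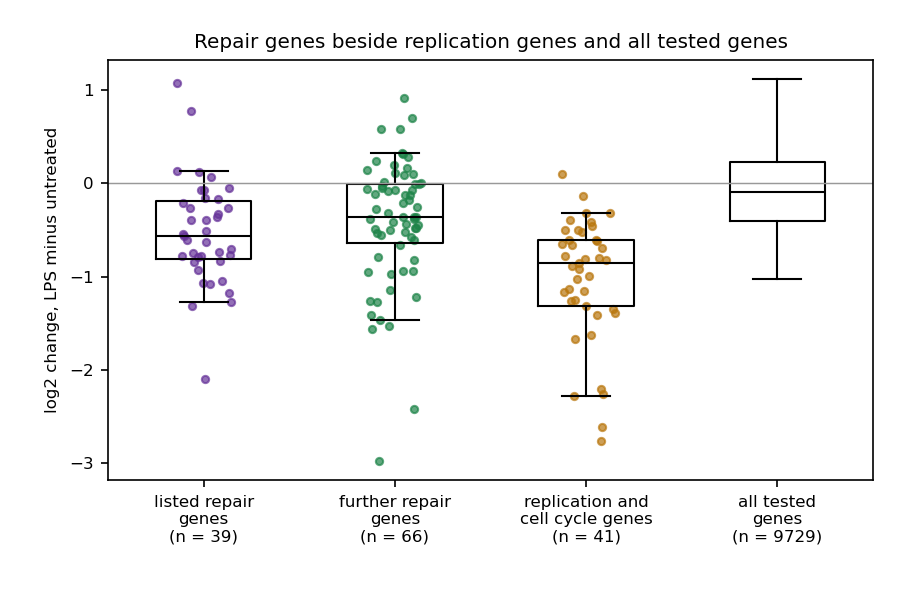
Log2 change, LPS minus untreated, of the 39 tested repair genes, 66 further repair genes, 41 replication and cell cycle genes (a point for each gene) and all 9729 tested genes (box only). Boxes span the quartiles with the median as a line and whiskers reach the 5th and 95th percentiles, and the medians are -0.57, -0.36, -0.86 and -0.09 in that order.

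Of the 24 genes that passed, 7 kept their call in each of 14 other settings of normalization, filter, probe choice, block and left-out array: Chek2, H2afx, Rad54l, Xrcc6, Fancd2, Fanci and Msh6, all lower with LPS. Without untreated replicate A 15 of the 24 calls were lost, and without untreated replicate B 13 were lost. The median change of the repair genes lay below that of all tested genes in each of these settings, by 0.17 with the deposited log2 table to 0.51 without LPS replicate A. The size of a single change varied more, from -1.72 to -0.41 for Chek2 and from -1.81 to -0.43 for Fanci.

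**Figure D4:**
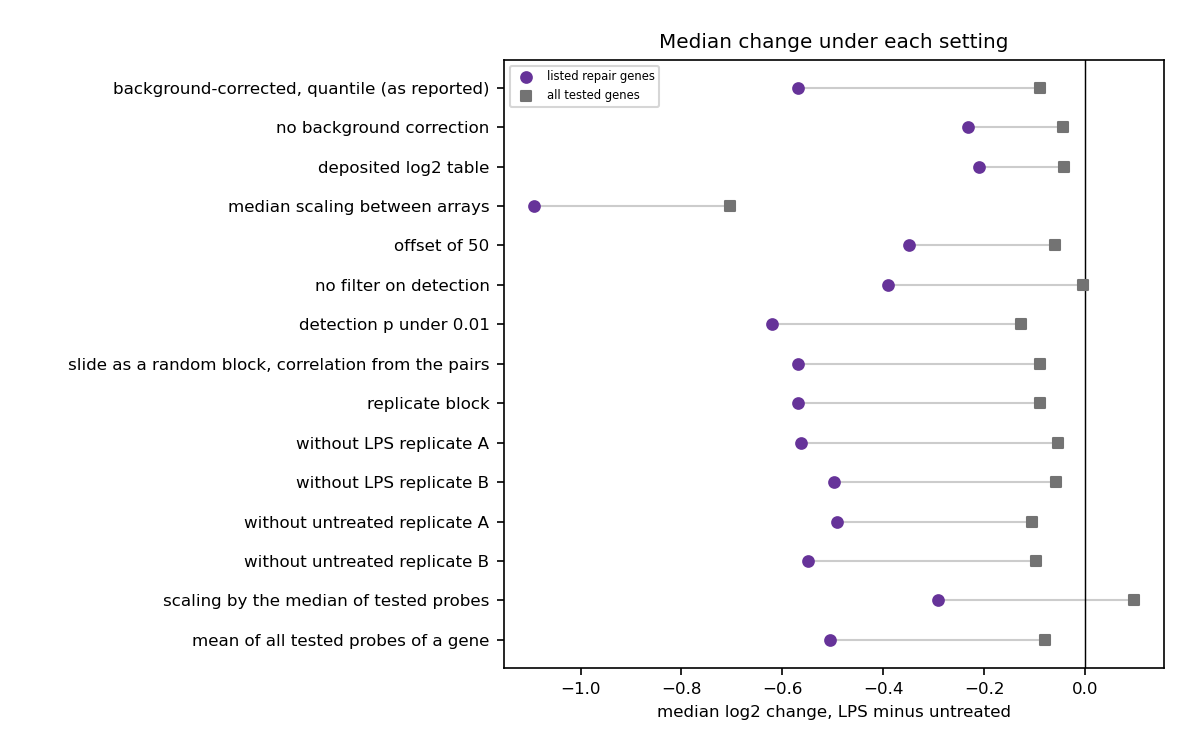
The median log2 change, LPS minus untreated, over the tested repair genes (purple circles) and over all tested genes (grey squares) is on the horizontal axis, with a row for the values as reported and for each of the 14 other settings. The circle lies left of the square in every row, and both shift left, to -1.09 and -0.70, when arrays are scaled to their median signal.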

How the data were processed

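Total RNA of 4 cultures was hybridised to Illumina mouse whole-genome arrays. The authors extracted bead signal intensity with GenomeStudio 2011.1, and the deposited intensity is linear and not background-subtracted. The deposited detection p-value sets each probe against negative controls, and the deposited bead number gave 24 to 70 beads per repair probe. The deposited log2 table served as an alternative only, since its normalization is not described. Probes were named from the platform annotation, updated through RefSeq: 28620 by Entrez identifier, 2637 by accession, 4471 by symbol or synonym, and 56 unchanged.

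Signals were background-corrected with neqc of limma 3.58.1 (R 4.3.3; offset 16), quantile normalized and taken to log2. A probe was tested, with lmFit and eBayes, when its detection p was under 0.1 in both replicates of LPS or of untreated cells (17211 probes), and the brightest tested probe stood for a gene. The script was tested on simulated data. The number of arrays limits the precision. Members, gene lists and settings were chosen with earlier results of these data known. The text names every listed repair gene and up to 3 called genes in each direction of the other lists. Promoters are those of the called genes with the largest changes, up to 6 in all.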

Additional observations from a re-analysis of the deposited data

How the results depend on the processing

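Of 543 values of single repair genes under other settings, 435 kept both direction and side of the threshold, 64 no longer passed and 24 newly passed. In 20 the sign turned. Of these, 15 were of genes that passed neither way, among them Chek1 (0.45), Fancg (0.32) and Lig4 (0.23) with scaling by the median of tested probes. The other 5 were past the threshold in 1 of the 2 settings compared: under median scaling, Mre11a (-0.76), Trp53bp1 (-0.75), Ddb1 (-0.81) and Lig3 (-0.078), and with the scaling by tested probes, Exo1 (0.042). In order of further repair genes (66 tested) and repair genes (39 tested), the lower counts were 58 and 36 with median scaling. With slide as a random block they were 16 and 13. With no filter on detection 14 of 46 repair genes were lower. The shares lower among all genes were 62.7%, 9.20% and 8.03% in these 3 settings. The higher counts of further repair genes were 0 with median scaling and 1 with the slide block. Those of repair genes, of which 46 were tested with no filter and 39 otherwise, were 0 with median scaling. They were 1 each with no filter, the slide block and the mean of all tested probes. Of all genes, 4.95%, 5.26%, 7.46% and 14.5% were higher in these settings, in that order. Leaving out 1 array gave 8 to 26 lower and 1 to 2 higher repair genes, 11 to 36 lower and 0 to 7 higher further repair genes, 20 to 38 lower and 0 higher replication genes, and 39 to 40 detected repair genes. The lone array of a condition is then assumed to vary like the pair of the other. The replicate letters A and B name no shared batch, and deviations of same-letter arrays correlated at 0.145. With a replicate block 22 of 39 repair genes were lower and 2 higher, against 23.9% and 15.5% of all tested genes. The counts were then 28 and 4 of 66 further repair genes and 35 and 0 of 41 replication genes. The slide block by duplicateCorrelation could not be fitted with 4 arrays, so a correlation of 0.732 from the array pairs was used. It is 1 minus the ratio of the median squared replicate differences, untreated pair over LPS pair. All the wider spread of the LPS pair is thereby assigned to slide, and other sources of that spread were not tested. That block and the scaling by tested probes were chosen after seeing the data. Signals near the negative controls, such as those of Xrcc3, Exo1, Prkdc, Ogg1 and, on 1 LPS array each, Xpc and Fanci, limit what these arrays can show.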

Other observations

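Known targets of p53, the transcription factor that ATM and CHK2 activate after damage, moved in both directions in cells given LPS. Of 15 tested, 7 were higher (46.7%, against 13.7% of all tested genes) and 6 were lower (40.0%, against 21.4%). Their median log2 change was 0.47. Fas, which encodes a death receptor, was higher by 4.86 (adjusted p = 1.57e-06 from limma), the kinase gene Plk2 by 3.03 and the growth arrest gene Gadd45a by 1.72. Sesn1, which restrains growth signalling under stress, changed by -2.14, Phlda3, an inhibitor of AKT, by -1.40, and the RNA-binding protein gene Zmat3 by -1.27. Phlda3 had 4.34 on LPS replicate B, below the lowest value of a detected probe on that array (4.65). Several of these genes are known to answer to other factors too, and the list does not measure p53 activity.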
